A study of Mus musculus with 6 samples.

Results

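Genes of ribosome biogenesis and the nucleolus were examined in ILC2s (group 2 innate lymphoid cells) that had been isolated from lungs of mice. The set holds 53 of the 39527 genes in the authors' deposited table. Its members are the protein-coding genes whose symbols match the Nop, Nol, Utp and Rrp series, Polr1a to Polr1e, Imp3 and Imp4, together with Ncl, Npm1, Fbl, Dkc1, Gar1, Nhp2, Pes1, Bop1, Wdr12, Ddx21, Bysl and Rrs1. The rule used symbols alone and no measured value, but the members were chosen with earlier results of these data known. Of the 53 genes, 51 had an adjusted p-value and are called tested below. Nol3 and Nol4 had none, with means of 3.04 and 2.41 normalized counts in the authors' deposited table.

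The nucleolus is where RNA polymerase I transcribes ribosomal RNA and where the transcript is modified, cut and assembled with ribosomal proteins. Small nucleolar ribonucleoproteins (snoRNPs) guide the chemical modification of the RNA, box C/D particles for ribose methylation and box H/ACA particles for pseudouridine. A large particle called the small subunit processome folds and cuts the small subunit precursor, and a separate series of factors builds the large subunit. Demand for new ribosomes is known to rise when lymphocytes are activated and divide.

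RNA was sequenced from 2 groups of 3 samples, and each sample pooled 3 to 4 mice. WT mice carried R5/+ and KO mice R5/+LKB1f/f, so that both groups share 1 R5 allele, and both received 4 days of IL-33 before the cells were sorted from lung. LKB1 is the kinase encoded by Stk11. R5 is known as an Il5 knock-in that carries tdTomato and Cre, so that deletion depends on Il5 expression, and the sources used here give no age of the mice. IL-33 is the epithelial cytokine that activates ILC2s.

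The values are those of the authors' comparison, with 1 log2 fold change and 1 standard error (SE) per gene, and values of single samples were not used here. Neither the labels nor the column names state which genotype is the numerator. Stk11 had -1.34 ± 0.30 (SE) in the authors' deposited table. Signs are given as deposited, and a negative value has the sign of Stk11. Genes counted below as negative or positive carried that sign and passed an adjusted p of 0.05.

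Over the whole table, 14961 genes were tested, with a median log2 fold change of -0.0056. Of them, 24.5% were called, 13.5% as negative and 11.0% as positive. All 14 listed ILC2 markers were tested, with means from 291.2 (Thy1) to 44552 (Gata3) normalized counts in the authors' deposited table. Of these, 4 were negative (Thy1, Il13, Arg1 and Klrg1) and 3 positive (Kit, Gata3 and Icos), with a median of 0.13. Of 26 markers of other cell types, 24 were tested, 7 were negative and 0 positive, with a median of -0.83. The negative ones were Cd3g, Cd79b, Ighm, Jchain, C1qa, H2-Ab1 and Ngp. None of the 26 markers stood at 0. In the authors' deposited table, Ighm and H2-Ab1 had means of 6265 and 4959 normalized counts. Sftpc and Lyz2, which did not pass, had means of 7594 and 4469 there. Whether the transcripts of the 26 markers came from other cells or from the ILC2s was not tested, nor was the part of other cells in the results below.

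Tested members lay mostly on the negative side. Of 51 tested genes, 44 had a log2 fold change below 0 and 7 above. The threshold was passed by 19 negative genes and 1 positive gene, Utp14b. Among all tested genes 13.5% were negative and 11.0% positive, against 37.3% and 1.96% of the tested members. The median log2 fold change of the tested members was -0.37, against -0.0056 over all tested genes. Members were abundant, with a median of 742 mean normalized counts against 278.6 over all tested genes, and their median SE was 0.177 against 0.233. Of the 7512 tested protein-coding genes between 239.4 and 10947 mean normalized counts, the range of the members other than Utp14b, 20.3% were negative, with a median of -0.038. A difference in the number of cells with these transcripts and a difference in RNA per cell cannot be told apart in sorted, pooled cells.

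**Figure D1:**
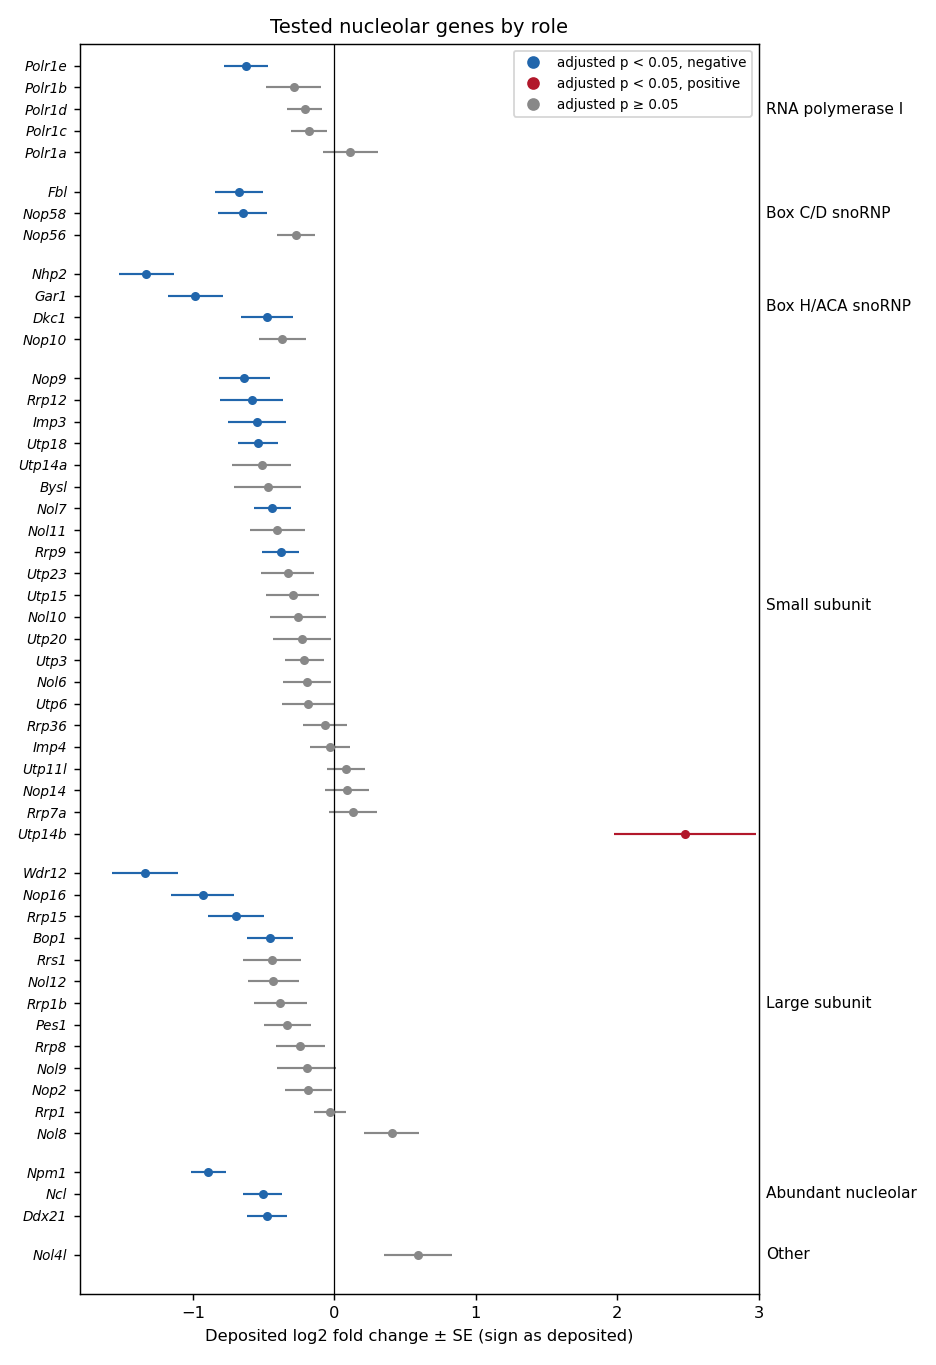
Deposited log2 fold change (x axis) of each tested nucleolar gene, grouped by role; bars are the deposited standard error, and colours mark genes with an adjusted p below 0.05. Of the 51 genes drawn, 44 lie left of 0, and Utp14b stands alone at 2.48.

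The sequences before the start of 6 members are shown as examples, because they differ in whether they hold CACGTG, the E-box known to be bound by MYC with MAX. The choice does not reflect how often members hold it, which is given below. Bases are written 5′ to 3′ on the strand of the gene, from RefSeq on GRCm38.p6, trimmed to the stretch that no annotated exon touches, and capitals mark CACGTG. Nhp2 (chr11:51619523-51619734, plus strand), Gar1 (chr3:129831397-129831646, minus strand) and Ncl (chr1:86359456-86359573, minus strand) were negative and hold none in these stretches. Utp18 (chr11:93885767-93885851, minus strand) was negative and holds 1. Nol11 (chr11:107189382-107189631, minus strand) and Nop2 (chr6:125131633-125131882, plus strand) did not pass the threshold and hold 1 each.
Nhp2: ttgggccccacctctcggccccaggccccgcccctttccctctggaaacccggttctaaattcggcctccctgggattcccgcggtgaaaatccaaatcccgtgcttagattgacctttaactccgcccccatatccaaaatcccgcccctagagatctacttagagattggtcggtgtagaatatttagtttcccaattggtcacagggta
Gar1: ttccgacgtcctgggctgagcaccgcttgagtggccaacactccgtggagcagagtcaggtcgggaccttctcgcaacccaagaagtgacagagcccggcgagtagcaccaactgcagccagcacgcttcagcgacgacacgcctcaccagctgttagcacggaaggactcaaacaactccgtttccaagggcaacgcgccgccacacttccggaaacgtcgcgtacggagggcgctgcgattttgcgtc
Ncl: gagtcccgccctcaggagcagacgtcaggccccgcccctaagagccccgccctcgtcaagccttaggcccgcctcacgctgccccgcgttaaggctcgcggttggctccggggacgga
Utp18: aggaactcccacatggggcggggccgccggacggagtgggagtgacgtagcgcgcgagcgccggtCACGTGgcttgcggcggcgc
Nol11: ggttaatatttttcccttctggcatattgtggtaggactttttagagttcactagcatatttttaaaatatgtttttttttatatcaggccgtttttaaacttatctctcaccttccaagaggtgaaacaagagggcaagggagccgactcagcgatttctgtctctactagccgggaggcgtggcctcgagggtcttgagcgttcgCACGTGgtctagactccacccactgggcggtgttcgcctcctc
Nop2: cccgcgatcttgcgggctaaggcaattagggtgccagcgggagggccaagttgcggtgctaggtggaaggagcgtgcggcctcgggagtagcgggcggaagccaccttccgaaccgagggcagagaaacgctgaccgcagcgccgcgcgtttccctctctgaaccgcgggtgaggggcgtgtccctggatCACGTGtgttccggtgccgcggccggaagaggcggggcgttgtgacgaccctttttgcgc

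The 250 bases before each RefSeq start were searched for 3 motifs on both strands, none of which contains another. Entries were found for 42 of the 53 members, with 49 starts, and the same windows of 9975 tested protein-coding genes (12801 starts) served as background. CACGTG was present at 6 of 49 member starts (12.2%), against 7.88% of all starts. Those 6 were Imp4, Nol11, Nop2, Rrp7a, Utp14b and Utp18. Among negative members it was present at 1 of 17 starts (5.88%), that of Utp18, where it begins 20 bases before the start. Those starts belong to 15 of the 19 negative members, and Npm1, Fbl and Bop1 had no entry. The other tested members, Utp14b among them, held it at 5 of 32 starts (15.6%). CCGGAAG, the core bound by ETS factors, was present at 10 of 49 member starts (20.4%), against 12.8% of all starts, and at 4 of the 17 starts of negative members (23.5%). CCAAT was present at 28.6% of member starts and 34.9% of all starts. These matches describe letters in a window and not binding. Each of the 17 starts weighs 5.88 percentage points.

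Of the 5 RNA polymerase I genes 1 was negative, a share near the 20.3% of protein-coding genes in the members' abundance range, and 0 were positive, with a median of -0.21. The member that passed was Polr1e, which encodes the polymerase-associated factor PAF53, at -0.62 ± 0.16 (SE), adjusted p = 0.00070, in the authors' deposited table. Polr1a, the catalytic core subunit, had 0.11 ± 0.19 and Polr1b, the second large subunit, -0.29 ± 0.19 in the authors' deposited table. Polr1c and Polr1d, which RNA polymerase III shares, had -0.18 ± 0.13 and -0.21 ± 0.13 in the authors' deposited table. The 95% interval of Polr1d ran from -0.46 to 0.04. Whether Polr1e differed from the other subunits was not tested.

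Genes of both snoRNP classes were mostly negative. In the box H/ACA particle, 3 of 4 genes were negative, against 13.5% of all tested genes, with a median of -0.73. Nhp2 (ENSMUSG00000001056, mm10 chromosome 11, 51619735 to 51623714, plus strand), a core protein that binds the RNA, had -1.33 ± 0.20 (SE, adjusted p = 9.83e-10) in the authors' deposited table. That value is a 2.52-fold difference, with a 95% interval of -1.71 to -0.95 on the log2 scale. Gar1, which is needed for release and turnover of the target RNA, had -0.99 ± 0.20 (adjusted p = 1.11e-05) in the authors' deposited table. Dkc1, the pseudouridine synthase dyskerin, lay close to the threshold in the authors' deposited table, with -0.48 ± 0.18 (adjusted p = 0.0427). Nop10, the smallest core protein, had -0.37 ± 0.17 and did not pass (adjusted p = 0.0973) in the authors' deposited table. All 4 proteins also take part in the telomerase particle.

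In the box C/D particle, 2 of 3 genes were negative, against 13.5% of all tested genes and 20.3% in the members' abundance range. Fbl, the methyltransferase fibrillarin, had -0.68 ± 0.17 (SE, adjusted p = 0.00076) and Nop58, a scaffold protein, -0.65 ± 0.17 (adjusted p = 0.0016) in the authors' deposited table. Nop56, the paralog that pairs with Nop58, had -0.27 ± 0.13 and did not pass (adjusted p = 0.135) in the authors' deposited table. The remaining core protein of this particle, encoded by Nhp2l1 (Snu13) and outside the symbol rule, was negative at -0.52 ± 0.16 in the authors' deposited table.

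The 3 abundant nucleolar proteins were all negative, against 13.5% of all tested genes and 20.3% in the members' abundance range. Ncl, which encodes nucleolin, had the highest mean of the set, 10947 normalized counts, and -0.51 ± 0.14 (SE, adjusted p = 0.0021) in the authors' deposited table. Npm1, which encodes the nucleolar chaperone nucleophosmin, had a mean of 9404 normalized counts and -0.89 ± 0.13 in the authors' deposited table. Its adjusted p, 1.55e-10, was the smallest of the set, and the value is a 1.86-fold difference with a 95% interval of -1.14 to -0.65 on the log2 scale. Ddx21, an RNA helicase that works in ribosomal RNA transcription and processing, had -0.48 ± 0.14 (adjusted p = 0.0049) in the authors' deposited table. Per kilobase of exonic length, the mean level of Npm1 (3529) was above those of Ncl (1074) and Ddx21 (345). The median tested member stood at 202. Exonic length joins the annotated exons of all transcripts of a gene, so that these levels depend on the annotation. Npm1 is known to have many processed pseudogenes, and the sources used here do not say how reads shared with such copies were counted.

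**Figure D2:**
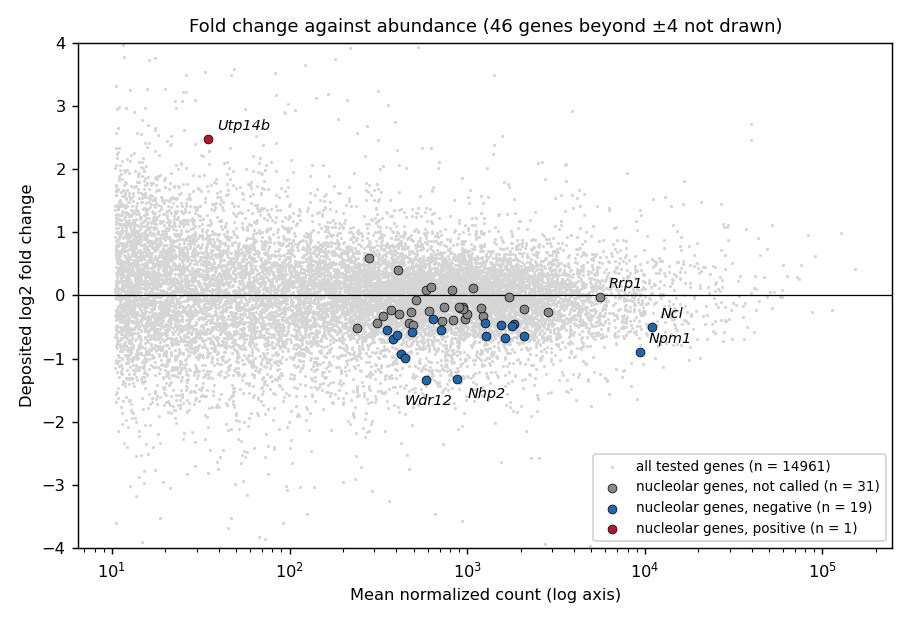
Deposited log2 fold change (y axis) against mean normalized count (x axis, log scale) for all 14961 tested genes in grey and the 51 tested nucleolar genes in colour. Npm1 and Ncl lie at the abundant end below 0, Rrp1 lies near 0 with a mean of 5575, and Utp14b lies at the low end with a mean of 34.9; 46 genes beyond 4 in either direction are not drawn.

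Factors of large subunit assembly were negative in 4 of 13 genes (30.8%, against 13.5% of all tested genes and 20.3% in the members' abundance range) and positive in 0, with 12 of 13 below 0 and a median of -0.38. Wdr12 (ENSMUSG00000026019, mm10 chromosome 1, 60069785 to 60098645, minus strand) had -1.34 ± 0.23 (SE, adjusted p = 3.82e-07) in the authors' deposited table, a 2.53-fold difference and the lowest value of the set. Wdr12 works with Pes1 and Bop1 in one complex, and the 3 genes had unequal values. Bop1 had -0.46 ± 0.16 (adjusted p = 0.0268) and Pes1 -0.33 ± 0.17 (adjusted p = 0.138) in the authors' deposited table. Nop16 and Rrp15, both assembly factors of the large subunit precursor, had -0.93 ± 0.22 (adjusted p = 0.00039) and -0.70 ± 0.20 (adjusted p = 0.0030) in the authors' deposited table.

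The other large subunit genes did not pass, and in the authors' deposited table ranged from -0.44 (Rrs1) to 0.40 (Nol8). Among them, Rrp1 was the most abundant member that did not pass, with -0.03 ± 0.11 (SE) and a 95% interval of -0.25 to 0.19 in the authors' deposited table. Nop2, an RNA methyltransferase and a long-known proliferation antigen, had -0.18 ± 0.17 in the authors' deposited table. Nol9, a polynucleotide kinase, and Rrp8, which methylates a base of ribosomal RNA, had -0.20 ± 0.21 and -0.24 ± 0.18 in the authors' deposited table. Rrs1, which helps to place the small ribosomal RNA of the large subunit, had -0.44 ± 0.20 (adjusted p = 0.0989) in the authors' deposited table. Nol12 (-0.43) and Rrp1b (-0.38) had adjusted p-values of 0.0599 and 0.133 in the authors' deposited table.

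Genes of the small subunit processome and of small subunit maturation were negative in 6 of 22 (27.3%) and positive in 1, with 18 below 0 and a median of -0.28. The share of negative genes was 13.5% over all tested genes and 20.3% over protein-coding genes in the members' abundance range. The negative genes ran from -0.64 to -0.38, a range that the threshold itself limits at its upper end. All tested genes of this role ran from -0.64 to 2.48 (Utp14b). Nop9, an RNA-binding repeat protein, had -0.64 ± 0.18 (SE, adjusted p = 0.0028) in the authors' deposited table. Utp18, a WD-repeat protein of the processome, had -0.54 ± 0.14 (adjusted p = 0.0017) in the authors' deposited table. Imp3 and Rrp9 belong to the U3 snoRNP that organizes the processome. Imp3 had -0.55 ± 0.21 (adjusted p = 0.0346) and Rrp9 -0.38 ± 0.13 (adjusted p = 0.0186) in the authors' deposited table. Rrp12, which takes part in maturation and export, had -0.58 ± 0.22 (adjusted p = 0.0386) and Nol7 -0.44 ± 0.13 (adjusted p = 0.0070) in the authors' deposited table.

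Values near 0 were found in the same particle. Imp4, the partner of Imp3, had -0.03 ± 0.14 (SE) with a 95% interval of -0.31 to 0.24 in the authors' deposited table. Utp11l, Nop14 and Rrp7a lay above 0 in the authors' deposited table, at values from 0.08 to 0.13. For the remaining tested members of this role, short of the threshold, the authors' deposited table gave values from -0.51 (Utp14a) to -0.07 (Rrp36). Bysl, which encodes the late maturation factor bystin, had -0.47 ± 0.24 (adjusted p = 0.138) in the authors' deposited table. Also within that range were Nol6, Nol10, Nol11, Utp3, Utp6, Utp15, Utp20 and Utp23. Utp14a and Nol4l lay just outside the threshold (adjusted p = 0.0533 and 0.0561), and Dkc1 and Rrp12 just inside it, in the authors' deposited table.

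Utp14b was the positive exception. It is a retrotransposed copy of Utp14a that is known for its role in the male germ line and lies within Acsl3, an acyl-CoA synthetase gene on the same strand (ENSMUSG00000079470, mm10 chromosome 1, 78658038 to 78671512, plus strand). It had 2.48 ± 0.50 (SE, adjusted p = 1.73e-05) in the authors' deposited table, a 5.58-fold difference with a 95% interval of 1.5 to 3.46 on the log2 scale. Its mean of 34.9 normalized counts in the authors' deposited table, or 4.55 per kilobase of exonic length, was the lowest of the tested members. The parent gene Utp14a had -0.51 ± 0.21 at a mean of 239.4 in the authors' deposited table. Exons of Utp14b and Acsl3 share 244 bases, 3.2% of the exonic length of Utp14b, and Acsl3 had 0.53 ± 0.27 (adjusted p = 0.141) in the authors' deposited table. The sources used here do not say to which gene reads from shared bases were counted, and their part in the value of Utp14b was not tested. For Nol4l, a gene of unsure role that shares only the symbol series, the authors' deposited table gave 0.59 ± 0.24, short of the threshold.

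Exons of 21 of the 53 members overlap an exon of another annotated gene, small RNA genes left aside, and 20 of these overlaps are with genes on the opposite strand. No source used here says that counting used strand. Among the 31 tested members without such an overlap, 12 were negative (38.7%, against 13.5% of all tested genes) and 0 positive (against 11.0%). Their median was -0.30. The overlap covers 29.9% of the exonic length of Nop9 (by Cideb, which had a mean of 1.45 normalized counts in the authors' deposited table) and 16.5% of Nol7 (by Ranbp9, at -0.54 ± 0.26 (SE) in the authors' deposited table). For Nhp2 it covers 3.8%, by Rmnd5b, which had a value of the other sign, 0.36 ± 0.14, in the authors' deposited table. For Rrp9 it covers 0.7%, by Parp3, at 0.54 ± 0.18 in the authors' deposited table.

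Exonic length, which joins the annotated exons of all transcripts of a gene, moved with the fold change over protein-coding genes and within the set. It can exceed the length of any single transcript. Over 13036 protein-coding genes, Spearman's rho between exonic length and log2 fold change was 0.263, and over the 51 tested members it was 0.238 (Pearson's r with log2 length 0.313), a description across genes that share the same libraries. Among the shortest 25% of protein-coding genes, up to 2879 bases, 6 of 13 members were negative, against 23.6% of all genes there. Among the 25% with the longest exonic length, from 7059 bases, 3 of 10 members were negative (Ncl, Nop58 and Wdr12), against 6.93% of all genes. Whether the transcripts present in these cells were that long was not tested. The members' median was below that of all genes in each of 4 length classes of equal size, -0.44 against -0.24 in the shortest and -0.13 against 0.15 in the longest. With the trends on length and GC content removed, 15 members were negative and 1 positive, against 11.4% and 11.3% of all genes in that fit (22.7% in either direction), and the members' median was -0.26. Imp3, the shortest tested member at 924 bases, moved from -0.55 to -0.22 and lost its call (adjusted p = 0.489). Nol7 moved from -0.44 to -0.23 (adjusted p = 0.217) and Dkc1 from -0.48 to -0.37 (adjusted p = 0.145). Bop1 moved from -0.46 to -0.40 and Rrp9 from -0.38 to -0.33, and both lay just outside the threshold (adjusted p = 0.0655 and 0.0514). Rrp1b, not called before, moved from -0.38 to -0.49 and passed the threshold (adjusted p = 0.0423). Wdr12, at 11955 bases, moved from -1.34 to -1.49.

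**Figure D3:**
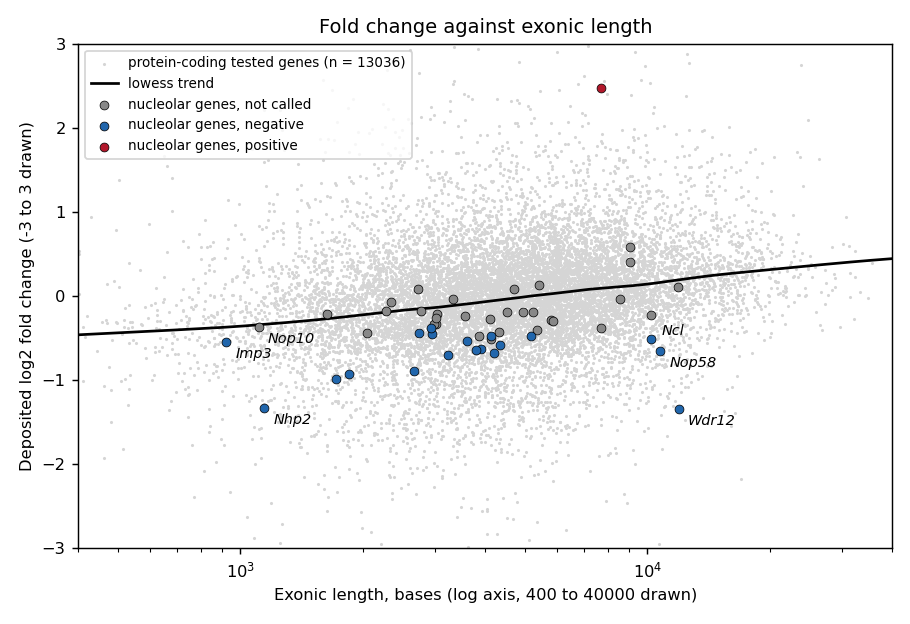
Deposited log2 fold change (y axis) against exonic length in bases (x axis, log scale) for 13036 protein-coding genes in grey, with their lowess trend as a line and the tested nucleolar genes in colour. Nhp2 and Wdr12 lie far below the trend at opposite ends of the length range, while Imp3 and Nop10 lie close to it.

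Genes of the same pathway outside the symbol rule were listed separately, among them exosome subunits, helicases, GTPases and late maturation factors. All 112 that the table holds were tested. Of these, 37 were negative (33.0%) and 2 positive (1.79%), against 13.5% and 11.0% of all tested genes, 92 lay below 0 and the median was -0.25. The smallest p-values on the negative side belonged to Pno1, a late small subunit factor, at -1.001 ± 0.175 (SE), to Mrto4, a placeholder for a stalk protein on the large subunit, at -0.78 ± 0.15, and to Wdr36, a processome protein, at -0.78 ± 0.16, in the authors' deposited table. The positive genes were Ddx5, an RNA helicase with many roles outside the nucleolus, at 0.65 ± 0.16 and Ttf1, the RNA polymerase I terminator, at 0.36 ± 0.13 in the authors' deposited table. Next on the positive side was Ubtf, the RNA polymerase I activator, which the authors' deposited table gave at 0.28 ± 0.13, short of the threshold. With the length and GC trends removed, 20 of the 112 were negative (17.9%) and 4 positive (3.57%), against 11.4% and 11.3% of all genes in that fit.

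**Figure D4:**
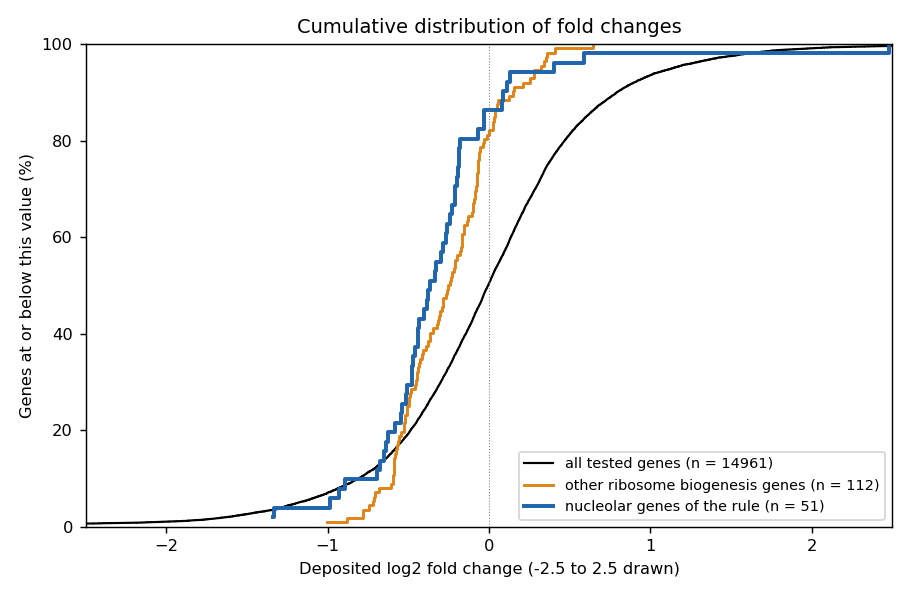
Share of genes (y axis, percent) at or below each deposited log2 fold change (x axis) for the 51 tested nucleolar genes, the 112 other ribosome biogenesis genes and all 14961 tested genes. At 0 the curves of both pathway lists stand above that of all genes, with 86.3% and 82.1% of their genes below 0 against 50.4%, while at the most negative values the curves cross.

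Cell division genes carried the same sign. All 30 listed cell cycle genes were negative, against 13.5% of all tested genes, with a median of -1.28 and a range of -1.83 to -0.85. Every tested member except Wdr12, Nhp2, Gar1, Nop16 and Npm1 lay above the upper end of that range. The part of cell division in the values of the nucleolar genes was not tested.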

How the data were processed

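RNA was sequenced from sorted lung ILC2s of 3 WT and 3 KO pools. Per the labels' protocols, the SMART-Seq HT kit gave full-length cDNA and TruePrep V2 the libraries. The submitters' processing notes name mm10, HISAT2 and Cufflinks without versions. The sources used here give no counting tool, annotation or use of strand.

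The authors deposited 1 table of 39527 genes. Per the file headers it gives a mean normalized count (a signal over the libraries of the authors' fit), a log2 fold change, its SE, a score for the test, and p-values before and after adjustment. The header's column names are those of a DESeq2 results table, although no source used here names the authors' tool. The score equalled log2 fold change over SE to within 2.41e-07, and adjusting the p-values by Benjamini-Hochberg gave the adjusted ones to within 7.56e-07. The 12 per-sample columns bear 6 names that match no label and were not used, so that no fit to single samples, sample depth or replicate spread is given here. The sources used here name neither the libraries behind the deposited fit nor separate cohorts, so that p-values measure only the spread between those libraries.

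Genes with an adjusted p (14961, with a mean of at least 10.5) were tested, and those below 0.05 called. The 95% intervals are normal. Members, roles and lists were chosen with earlier results of these data known. Named genes were every called member, the 3 most abundant members not called, those next to the threshold and, in the wider pathway list, the 3 smallest p-values in each direction; other members were named after their values were seen. Exonic lengths (annotated exons of all transcripts of a gene joined), exon overlaps and GC content (longest transcript) came from GENCODE M21 on mm10. It held all 53 members. Lowess trends (fraction 0.3) on log2 length, then GC, were removed over 13036 protein-coding genes. The code for calling and trend removal was run on simulated fold changes with independent noise of the deposited SEs and an added length trend. Such data cannot test whether those SEs are right. Steps used statsmodels 0.14.6, scipy 1.17.1, numpy 2.4.6, pandas 2.3.3 and matplotlib 3.10.9 in Python 3.11.15. Alternatives are given in the closing section.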

Additional observations from a re-analysis of the deposited data

How the results depend on the processing

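No paired analysis was possible because the per-sample columns match no label; the planned edgeR, DESeq2, block and leave-one-replicate-out fits were not run for the same reason. Of the 20 called members, Gar1, Nhp2, Nop16, Npm1 and Wdr12 kept sign and call in every alternative in which they were counted, as did Utp14b, and no called member changed sign. Bop1, Dkc1, Imp3 and Rrp12 lost their call when p-values were adjusted over every gene with a p-value. The median of the members ranged from -0.37 to -0.26. The count of negative members was mostly between 14 and 23. It was 14 at an adjusted p below 0.01 (27.5%, against 9.0% of all genes) and 23 below 0.1 (45.1%, against 16.3%). Outside that range, the test against a null of at most 0.25 gave 5 (9.8%, against 4.77% of all genes). Fewer genes were counted without members that overlap another gene, an alternative chosen after seeing the data. It gave 12 negative (38.7%, against 13.5% of all genes) and 0 positive of 31. Positive members were 2 (3.92%) at an adjusted p below 0.1 (13.9% of all genes) and when centred on the most abundant 25% of genes (12.4%). Nol4l was the second. With means of at least 100 the 1 positive member (2.0%, against 15.5%) was Nol4l, as Utp14b was not counted. The wider pathway list of 112 gave 20 negative (17.9%, against 9.0% of all genes) and 1 positive (0.893%, against 6.79%) at an adjusted p below 0.01, 4 positive (3.57%, against 13.9%) below 0.1, and 1 positive (0.893%, against 3.2%) when adjusted over every gene with a p-value. It gave 20 negative and 4 positive with length and GC trends removed, and 5 negative (4.46%, near the 4.77% of all genes) and 0 positive (against 3.49%) under the null of at most 0.25. Centring on the most abundant 25% of genes moved the whole table by 0.037 and changed its split of calls from 2024 negative and 1644 positive to 1799 and 1858, with 16 members negative. Apart from these constructions, the cause of each shift was not tested. Depth per sample was not used here, and precision is that of the deposited SE, with a median of 0.177 over tested members.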

Other observations

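The symbol rule misses members of the same series that the table lists under older symbols, and these were chosen after their values were seen. RefSeq lists Gltscr2 as a synonym of Nop53, a large subunit factor, and it was positive at 0.47 ± 0.16 (SE, adjusted p = 0.0171) with a mean of 8785 normalized counts in the authors' deposited table. This is opposite in sign to Npm1 and Ncl, which have means of a similar size. Cirh1a, a synonym of Utp4, had -0.36 ± 0.15 (adjusted p = 0.0561) and Diexf, a synonym of Utp25, -0.10 ± 0.31, both short of the threshold in the authors' deposited table.

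Myc, whose protein is known as an activator of ribosome biogenesis genes, was positive at 1.10 ± 0.21 (SE) with a mean of 5105 normalized counts in the authors' deposited table, opposite in sign to the 19 negative members. The gene was chosen after its value was seen, and no relation between Myc and these members was tested.

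Introns and exons of 4 members, Dkc1, Ncl, Nop56 and Nop58, hold 13 annotated snoRNA genes on the same strand. The 6 that are listed in the authors' deposited table had means of at most 6.67 normalized counts and no adjusted p.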
